A study of Arabidopsis thaliana with 6 samples.

Results

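The most strongly methylated windows that lose their CHH methylation when Pol IV is absent were 664 of the 278507 windows of 300 bp that had enough data in all libraries. CHH methylation is 5-methylcytosine where the cytosine is followed by neither G at the next base nor G at the base after it (H is A, C or T). Windows were laid end to end from the first base of each of the 5 chromosomes. A window counted as covered when each library held at least 10 CHH cytosines with at least 5 reads. A level is the percent methylated of reads summed over CHH cytosines, so a read counts once at each cytosine it covers. A covered window was a member when its pooled level was 35% or more in plants carrying full-length NRPD1, below 5% in nrpd1-3 plants, and when the share of the difference that came back in NRPD1ΔCTD plants, called the restored share, was at least 25% and below 95%. Members were thus chosen by the levels of all 3 groups, and their levels are given as a description, with no test.

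Bisulfite sequencing was done on above-ground tissue of 2.5 week old Arabidopsis thaliana plants of ecotype Col-0, in 3 groups of 2 libraries, all in the nrpd1-3 mutant background. NRPD1ΔCTD plants (transgene nrpd1dDeCL) carried NRPD1 without its C-terminal DeCL region. The nrpd1-3 plants had no transgene, and full-length NRPD1 plants (transgene NRPD1FL, although the sample titles read NRPE1FL) carried the intact gene. Both transgenes were expressed from the native NRPD1 promoter with a C-terminal FLAG tag, and transgenic plants were chosen with Basta, the study's methods naming a single NRPD1ΔCTD line. Wild-type plants were not analysed here, and full-length NRPD1 plants served for comparison. The study describes the libraries of a genotype as independent biological replicates, while the labels do not say whether they came from separately grown plants.

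NRPD1 is the largest subunit of RNA polymerase IV, a plant enzyme that transcribes transposons and other repeats into short RNAs. RDR2 makes these double-stranded, DCL3 cuts them into 24 nt small interfering RNAs, and AGO4 carries those to transcripts of Pol V, where DRM2 methylates the DNA. This route is RNA-directed DNA methylation. CHH methylation has no partner cytosine on the opposite strand and is laid down anew after each replication, which makes it the usual readout of the pathway, although CMT2 also methylates CHH sites, without small RNAs, mainly in long heterochromatic transposons.

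The sequences of 4 members show what such a window looks like. They are the first window under each of the rules for the highest full-length level, the lowest and highest restored share and the restored share nearest the median, all with at least 20 CHH cytosines in every library. Each line is the top strand, 5′ to 3′, of the TAIR10.1 RefSeq assembly, whose coordinates match those of the files, and a capital marks a CHH cytosine (C on the top strand, G where the cytosine is on the bottom strand) with a pooled level of 50% or more in full-length NRPD1.
chr1:634201-634500 (highest full-length level, upstream of NLA): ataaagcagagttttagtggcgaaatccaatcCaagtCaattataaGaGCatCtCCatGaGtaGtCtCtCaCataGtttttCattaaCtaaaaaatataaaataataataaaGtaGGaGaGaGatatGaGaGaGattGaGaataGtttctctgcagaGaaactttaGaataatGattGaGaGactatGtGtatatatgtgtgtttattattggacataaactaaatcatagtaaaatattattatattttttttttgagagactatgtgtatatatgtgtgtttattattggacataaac
chr2:904501-904800 (lowest restored share, near AGL30): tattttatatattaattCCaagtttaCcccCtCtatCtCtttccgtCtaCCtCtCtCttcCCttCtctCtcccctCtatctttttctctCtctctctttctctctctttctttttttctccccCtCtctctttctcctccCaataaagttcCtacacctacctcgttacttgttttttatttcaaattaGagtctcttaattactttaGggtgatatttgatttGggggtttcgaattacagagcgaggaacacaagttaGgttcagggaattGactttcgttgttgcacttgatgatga
chr5:7272601-7272900 (highest restored share, upstream of TPR7): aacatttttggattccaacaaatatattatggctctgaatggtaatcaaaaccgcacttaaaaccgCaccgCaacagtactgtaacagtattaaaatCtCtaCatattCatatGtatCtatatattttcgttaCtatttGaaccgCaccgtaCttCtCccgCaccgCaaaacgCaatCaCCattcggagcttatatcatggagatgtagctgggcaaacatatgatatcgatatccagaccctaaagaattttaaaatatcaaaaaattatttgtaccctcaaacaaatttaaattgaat
chr1:12080701-12081000 (median restored share, upstream of AT1G33320): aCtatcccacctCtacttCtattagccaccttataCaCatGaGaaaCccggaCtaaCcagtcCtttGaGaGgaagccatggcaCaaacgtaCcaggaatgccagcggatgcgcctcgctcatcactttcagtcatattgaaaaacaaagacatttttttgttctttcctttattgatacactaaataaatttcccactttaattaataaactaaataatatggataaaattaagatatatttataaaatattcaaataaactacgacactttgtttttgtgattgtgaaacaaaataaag
The first window was 73.0% A or T, and 39 of its 42 listed CHH cytosines were in capitals, 12 on the top strand and 27 on the bottom strand. Reads over those 39 cytosines were 62.6% methylated in NRPD1ΔCTD, 0.211% in nrpd1-3, where 18 of them were listed, and 76.3% in full-length NRPD1. In the chr2 window, 23 of 28 capitals were on the top strand, in a stretch rich in C and T, and their level was 14.4% in NRPD1ΔCTD and 60.9% in full-length NRPD1, although only 11 of the 28 were listed in NRPD1ΔCTD and 5 in nrpd1-3. In the chr5 window the capitals stood at 62.2% in NRPD1ΔCTD, 5.73% in nrpd1-3 and 64.9% in full-length NRPD1. In the chr1 window of median restored share they stood at 45.5% in NRPD1ΔCTD, 2.17% in nrpd1-3 and 58.7% in full-length NRPD1.

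Across all 664 members, 33.4% and 32.7% of CHH reads were methylated in the NRPD1ΔCTD libraries, 2.16% and 2.17% in the nrpd1-3 libraries, and 44.2% and 44.1% in the full-length NRPD1 libraries. The groups did not overlap, and the libraries of a group differed by less than 1 percentage point. Means were 33.1% ± 0.485 in NRPD1ΔCTD, 2.17% ± 0.00477 in nrpd1-3 and 44.1% ± 0.108 in full-length NRPD1 (SD, n = 2 libraries each). Over all covered windows the same means were 7.04% ± 0.278, 6.65% ± 0.556 and 7.19% ± 0.225. The restored share over pooled reads was 73.6%, and it was 74.5% and 72.8% for the single NRPD1ΔCTD libraries (mean 73.7% ± 1.16, SD, n = 2).

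**Figure D1:**
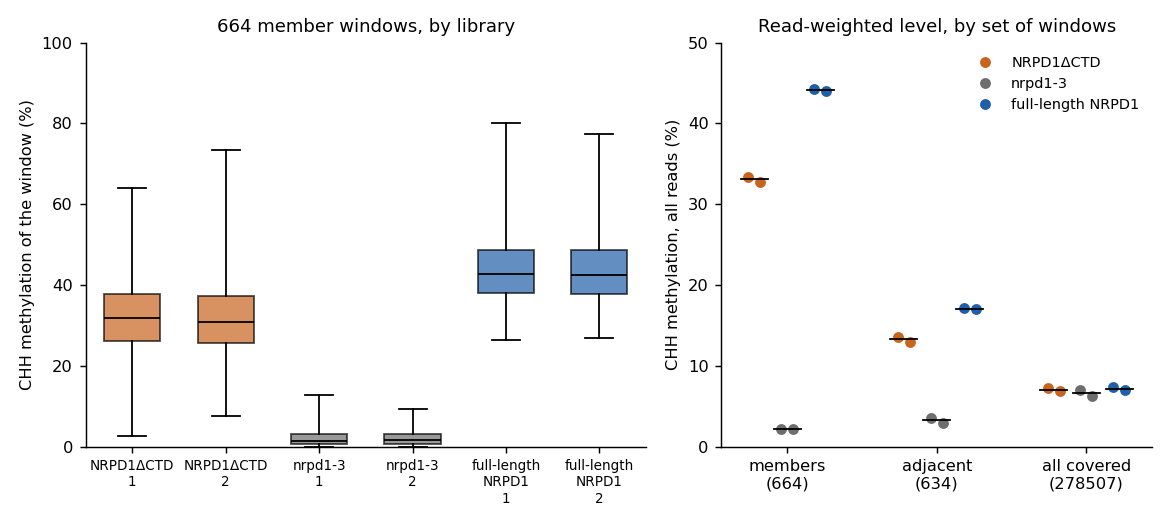
Left, CHH methylation (%) of the 664 member windows in each library, with boxes from the lower to the upper quartile, a line at the median and whiskers to the lowest and highest window. Right, read-weighted level (%) of each library (points) and group mean (line) for members, for the 634 adjacent windows and for all covered windows. Members stood at 33.4% and 32.7% in NRPD1ΔCTD, 2.16% and 2.17% in nrpd1-3 and 44.2% and 44.1% in full-length NRPD1, while the groups lay together over all covered windows.

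The dependence on Pol IV rests on the limit of 5% in nrpd1-3, and the residue was small but was not zero over the set as a whole. Of the 664 members, 191 had a pooled nrpd1-3 level below 1% and 31 had no methylated read in either nrpd1-3 library. A count of 0 allows a level of up to 0.442% to 2.44% in these windows (3 of the counts present, counting error only). Such limits take the counts as independent, although 1 read can give several. The median member stood at 1.47% and 1.53% in the nrpd1-3 libraries, while the median covered window stood at 0.622% and 0.438% in the same libraries. Single nrpd1-3 libraries were at 0 in 114 and 107 members, counts that allow levels of up to 0.622% to 5.36% in the library concerned. Of the 11764 member CHH cytosines with 10 or more pooled reads in each group, 65.5% had no methylated read in nrpd1-3 and 0.0340% were at 50% or more. In NRPD1ΔCTD 7.62% of those cytosines were at 0 and 15.2% at 50% or more, and in full-length NRPD1 5.02% were at 0 and 35.1% at 50% or more.

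The NRPD1ΔCTD libraries were both lower than either full-length library in 579 members (87.2%), an order found in 17.7% of all covered windows. They were above both nrpd1-3 libraries in all 664, as in 18% of all covered windows. Both nrpd1-3 libraries were below both of full-length NRPD1 in all 664, against 19.2% of all covered windows. Calls rest on logistic regression of the reads of each window, with a false discovery rate (Benjamini-Hochberg, over all covered windows) of up to 0.01 and pooled levels at least 10 points apart. NRPD1ΔCTD was called lower than full-length NRPD1 in 372 members and not called in 292, against 0.541% of all covered windows. It was called higher than nrpd1-3 in 662 members (1.5% of all covered windows), and nrpd1-3 was called lower than full-length NRPD1 in all 664 (2.44% of all covered windows). The rule fixed these contrasts, so the counts describe the members and are no support for them. The regression also takes the reads counted at each cytosine as independent, although 1 read can be counted at several. This test counts reads and takes no account of the spread between libraries, and limma, which does, called none of the covered windows in any comparison at the same adjusted p of 0.01 (664, 303 and 658 members had an unadjusted p up to 0.05 and 10 points for nrpd1-3 against full-length, NRPD1ΔCTD against full-length and NRPD1ΔCTD against nrpd1-3, as had 2.39%, 0.46% and 1.45% of all covered windows). The median member differed by -11.04 points between NRPD1ΔCTD and full-length NRPD1, and by 29.6 points between NRPD1ΔCTD and nrpd1-3.

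Restored shares of single windows were spread widely inside the limits. Their median was 74.0%, with quartiles of 62.2% and 81.8%. From 25% to 35% there were 17 members, from 55% to 65% 106, from 75% to 85% 191, and from 85% to 95% 110. Just inside the lower limit were windows at 25.3%, 25.8% and 26.0%, and just outside it windows at 24.95%, 23.2% and 21.6%. The nearest members to the limit of 35% in full-length NRPD1 stood at 35.002% and 35.022%, and the nearest windows outside at 34.992% and 34.987%, with 53 members within 1 point above it and 69 otherwise eligible windows within 1 point below. At the nrpd1-3 limit the nearest members stood at 4.97%, 4.94% and 4.89%, and the nearest windows outside at 5%. A further 18 windows met the other limits with restored shares below 25%, and 28 did so at 95% or more.

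A single window's restored share was much less repeatable than the mean over members. The share computed from the libraries numbered 1 and that from the libraries numbered 2 had Pearson's r of 0.302 and Spearman's rho of 0.309 across the 664 windows, which are no independent replicates, and their median absolute difference was 12.8 points. The counting error of one window's level had a median Wilson 95% half-width of 3.98 and 3.81 points in the NRPD1ΔCTD libraries. It was 1.79 and 1.80 points in the nrpd1-3 libraries, and 3.64 and 3.76 points in the full-length libraries. These half-widths take the counts of a window as independent, although 1 read can give several. Levels were also read in libraries whose levels had no part in choosing the windows. The cytosine minimum still had to be met in all 6 libraries. The levels of 648 covered windows met the limits in the libraries numbered 1 alone. Over these windows those libraries gave 32.5% in NRPD1ΔCTD, 1.99% in nrpd1-3 and 44.3% in full-length NRPD1, a restored share of 72.2%. The libraries numbered 2 gave 32.3% in NRPD1ΔCTD, 2.58% in nrpd1-3 and 42.7% in full-length NRPD1, a share of 74.3%. The nrpd1-3 level was thus higher and the full-length level lower than where the windows were chosen. Among 633 windows chosen in the libraries numbered 2, the share was 69.8% there and 74.9% in the libraries numbered 1. The extremes drew together. Of the 648 windows, the 216 of lowest share had a restored share of 51.9% where it was chosen and 63.6% in the other libraries, and the 216 of highest share had 85.5% and 81.0%.

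The named windows at the ends of the range show how far single loci differ. Window chr2:904501-904800, 501 bp from AGL30, a MADS-box transcription factor gene, had 11.9% and 11.5% in NRPD1ΔCTD, 1.56% and 0% in nrpd1-3, and 38.4% and 40.4% in full-length NRPD1, a restored share of 28.2%. Those levels rest on 637 and 514 reads in NRPD1ΔCTD, 257 and 224 in nrpd1-3, and 4029 and 4317 in full-length NRPD1, an uneven depth whose part in the levels was not tested. Window chr3:18172501-18172800, 437 bp upstream of AT3G49030, had 15.2% and 16.5% in NRPD1ΔCTD, 1.88% and 1.45% in nrpd1-3, and 49.9% and 44.1% in full-length NRPD1, a restored share of 31.3%. In both the NRPD1ΔCTD libraries lay far below the full-length libraries. At the other end, chr5:7272601-7272900, 321 bp upstream of TPR7, which acts in protein import into the endoplasmic reticulum, had 37.9% and 36.03% in NRPD1ΔCTD, 3.32% and 3.48% in nrpd1-3, and 40.2% and 37.2% in full-length NRPD1, a restored share of 94.8%. Here the ranges of the NRPD1ΔCTD and full-length libraries overlapped. Window chr5:18627301-18627600, 500 bp upstream of CHLI2, a subunit of the magnesium chelatase of chlorophyll synthesis, had 38.2% and 29.2% in NRPD1ΔCTD, 1.59% and 2.81% in nrpd1-3 and 35.8% and 36.8% in full-length NRPD1. Its share of 93.8%, from pooled reads, thus covers one NRPD1ΔCTD library above and one below the full-length libraries. The window of median share, chr1:12080701-12081000, 159 bp upstream of AT1G33320, had 32.9% and 31.3% in NRPD1ΔCTD, 0.353% and 3.73% in nrpd1-3 and 43.8% and 41.2% in full-length NRPD1.

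Methylation was concentrated at the members, which the rule chose for a high full-length and a low nrpd1-3 level. The full-length peak and the nrpd1-3 low at the centre of members follow from that choice and are a description. Around their centres, methylation in the 100 bp bin right of the centre was 34.1% in NRPD1ΔCTD and 45.7% in full-length NRPD1, the highest of their bins, and 2.13% in nrpd1-3, its lowest. It was 11.6% in NRPD1ΔCTD, 3.29% in nrpd1-3 and 15.2% in full-length NRPD1 in the bin centred at 450 bp. Of the 664 members, 192 had 2 covered neighbours, 313 had 1 and 159 had no covered neighbour. Among the 505 with at least 1 covered neighbour, 185 (36.6%) had none at 10% or more in full-length NRPD1. The longest unbroken run of covered windows at 10% or more that held a member was 30. Members touched each other in 30 pairs and in no longer run. The other 604 touched no member, although a neighbour that was not covered could not be one.

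**Figure D2:**
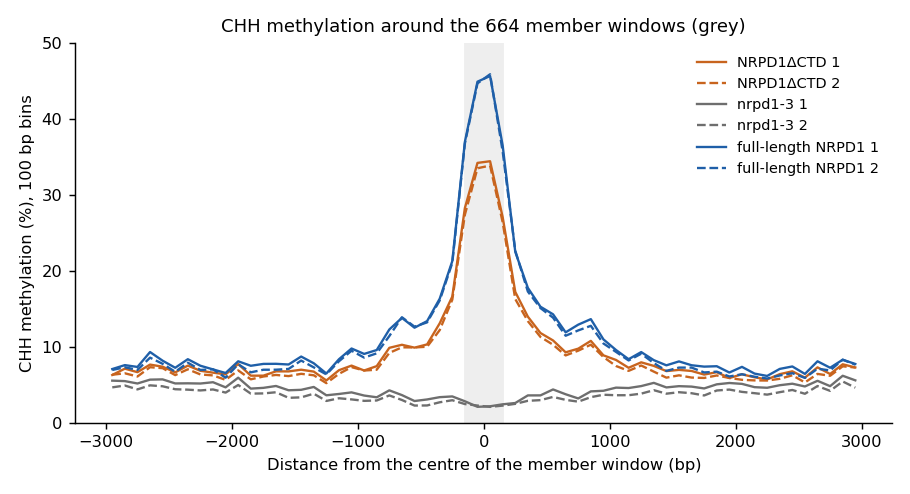
CHH methylation (%) in 100 bp bins by distance (bp) from the centre of the 664 member windows (grey band), 1 line for each library. The rule chose these windows for their levels, so the levels at the centre are a description. NRPD1ΔCTD and full-length NRPD1 peak at the centre, at 34.1% and 45.7%, and decline to 11.6% and 15.2% at 450 bp, while nrpd1-3 is lowest at the centre, at 2.13%, against 3.29% at 450 bp.

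The pair with the highest mean full-length level lies between PRA1.F4 and PRA8, genes of the prenylated RAB acceptor family, and is shown because its capitals stop within each window. The lines join end to end, with capitals as above.
chr3:4494001-4494300: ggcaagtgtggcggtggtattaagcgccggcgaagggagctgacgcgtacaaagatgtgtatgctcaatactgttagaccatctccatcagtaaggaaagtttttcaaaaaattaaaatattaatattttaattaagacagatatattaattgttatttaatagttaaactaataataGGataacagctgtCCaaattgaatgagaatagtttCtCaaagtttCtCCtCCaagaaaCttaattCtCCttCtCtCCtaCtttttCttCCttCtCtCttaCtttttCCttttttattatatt
chr3:4494301-4494600: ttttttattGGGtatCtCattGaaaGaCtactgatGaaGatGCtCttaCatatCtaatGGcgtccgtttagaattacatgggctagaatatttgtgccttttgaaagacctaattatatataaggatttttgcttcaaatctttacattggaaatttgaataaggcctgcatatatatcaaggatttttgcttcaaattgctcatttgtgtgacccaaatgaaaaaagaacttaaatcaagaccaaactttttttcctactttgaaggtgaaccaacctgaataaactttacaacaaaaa
The first window had 29 capitals, all in its final part, and the second had 17, all near its start. The first window stood at 52.0% and 47.3% in NRPD1ΔCTD, 1.32% and 0% in nrpd1-3, and 60.2% and 58.6% in full-length NRPD1, and the second at 44.2% and 42.7% in NRPD1ΔCTD, 0.216% and 0.358% in nrpd1-3, and 52.9% and 55.5% in full-length NRPD1. The 29 capitals of the first window were all listed in NRPD1ΔCTD, where reads over them were 76.4% methylated, against 86.6% in full-length NRPD1, but none of them was listed in either nrpd1-3 library, so the nrpd1-3 level of that window comes from its other cytosines.

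That window is an extreme of a pattern over the whole set. Among member cytosines listed in both full-length libraries, the share also listed in both nrpd1-3 libraries was 56.5% for the 4936 cytosines below 20% in full-length NRPD1, and 19.6% for the 2357 cytosines at 80% or more. The share listed in both NRPD1ΔCTD libraries was 80.3% and 74.1% for the same cytosines. Of the cytosines at 80% or more, 68.9% were listed in neither nrpd1-3 library. Reads per listed cytosine in members, relative to the same library over all covered windows, were 1.001 and 0.956 in NRPD1ΔCTD, 0.702 and 0.700 in nrpd1-3, and 1.12 and 1.08 in full-length NRPD1. Depth was thus lowest where methylation was lowest, and the groups did not overlap, but an exact two-sided permutation test of 2 libraries against 2 cannot go below p = 0.3333, which was the value for each pair of groups. In 529 windows at 35% or more in full-length NRPD1 that kept 5% or more in nrpd1-3, relative depths were 1.16 and 1.17 in NRPD1ΔCTD, 0.995 and 0.995 in nrpd1-3, and 1.22 and 1.20 in full-length NRPD1, so nrpd1-3 was the lowest there too. In the 18 windows with restored shares below 25%, NRPD1ΔCTD depths were 0.642 and 0.596, beside 0.606 and 0.587 in nrpd1-3, against 0.861 and 0.877 in full-length NRPD1. What part this has in the levels was not tested. On the 11304 member cytosines listed in all 6 libraries, levels were 29.6% and 28.5% in NRPD1ΔCTD, 2.17% and 2.19% in nrpd1-3 and 40.3% and 39.996% in full-length NRPD1, a restored share of 70.7%.

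**Figure D3:**
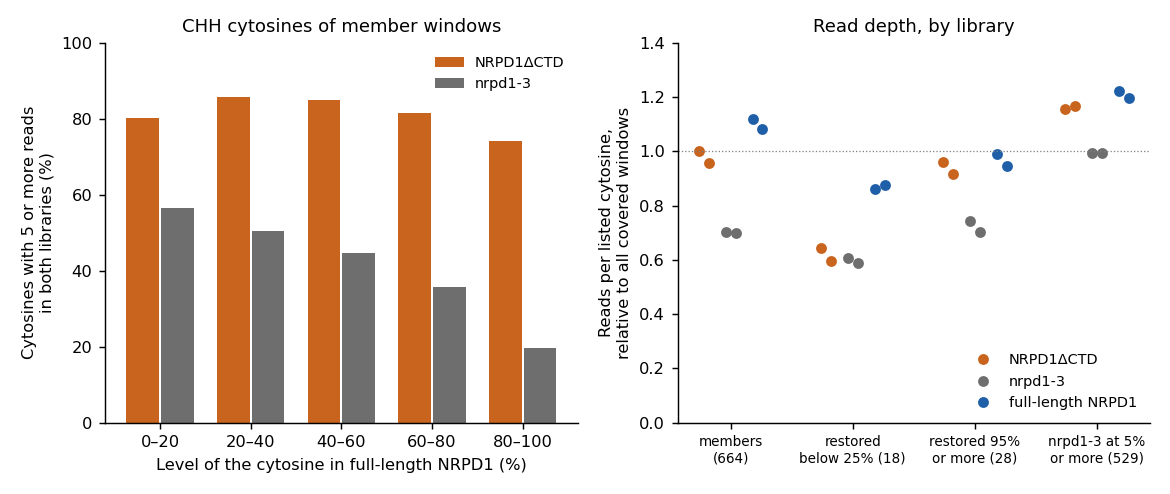
Left, percent of member CHH cytosines with 5 or more reads in both libraries of NRPD1ΔCTD and of nrpd1-3, by the cytosine's level in full-length NRPD1. Right, reads per listed cytosine relative to all covered windows, 1 point for each library, in members and in 3 other sets of windows at 35% or more in full-length NRPD1. The nrpd1-3 share declines to 19.6% in the highest class, where the NRPD1ΔCTD share is 74.1%, and nrpd1-3 depth is 0.702 and 0.700 in members and 0.995 and 0.995 where nrpd1-3 stayed methylated, the lowest of the groups in both.

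The adjacent windows were 634 covered windows that touch a member and did not themselves meet the rule. Each was picked for its place beside a window chosen by the same contrasts in the same libraries. Their tests are thus not independent of the choice of members. Their levels were 13.6% and 12.9% in NRPD1ΔCTD, 3.55% and 2.93% in nrpd1-3 and 17.2% and 17.0% in full-length NRPD1. The groups kept the order seen in members without overlap. Means were 13.3% ± 0.501 in NRPD1ΔCTD, 3.24% ± 0.436 in nrpd1-3 and 17.1% ± 0.111 in full-length NRPD1 (SD, n = 2 each), with p = 0.3333 in the exact permutation test for each pair of groups, the smallest it can give. By the window test, nrpd1-3 was lower than full-length NRPD1 in 278 adjacent windows and higher in 1, against 2.44% of all covered windows called lower. NRPD1ΔCTD was lower than full-length NRPD1 in 44 and higher in none (0.541% of all covered windows), and higher than nrpd1-3 in 208 and lower in 1 (1.5% of all covered windows). With limma 0 adjacent windows were called in each comparison, and 273, 42 and 205 had an unadjusted p up to 0.05 and 10 points, against 2.39%, 0.46% and 1.45% of all covered windows. The restored share over adjacent windows was 72.3%, with 74.96% and 69.8% for the single NRPD1ΔCTD libraries. In 271 of the 634 (42.7%) full-length NRPD1 stood below 5%, as it did in 78.0% of all covered windows.

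Members lay between genes and near them. By the midpoint, 594 (89.5%) were intergenic, against 23.1% of covered windows, and 3 were in coding exons, against 37.4% of covered windows. A further 26 members were in introns, 23 in untranslated exons, 13 in non-coding RNA genes and 5 in pseudogenes. Other windows at 35% or more in full-length NRPD1 were mostly intergenic too. These were 14 of the 18 restored below 25% and 24 of the 28 at 95% or more. So were 397 of the 529 that kept 5% or more in nrpd1-3. The nearest protein-coding gene of members started within 1 kb in 212 (31.9%, against 6.86% of covered windows) and ended within 1 kb in 120 (18.1%, against 5.41%). It contained the member in 52 (7.83%, against 64.1%) and lay farther away in 280. The gene started within 1 kb in 38.9%, 39.3% and 25.5% of those other sets, in the same order. Pericentromeric heterochromatin held 24.8% of members and 25.3% of covered windows. It held 2 of the 18 otherwise eligible windows with restored shares below 25%, and 11 of the 28 at 95% or more. Among members, whose restored shares the rule kept from 25% to below 95%, the restored share hardly moved with place. It was 73.6% in 165 pericentromeric members and 73.7% in 499 on the arms, 72.0% in those just upstream of a gene, 75.03% just downstream, 73.2% inside genes and 74.5% farther away, and it ran between 72.7% and 75.04% over the 5 chromosomes.

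Among genes with a member within 1 kb upstream, the highest full-length level was at ATNTH1, a DNA glycosylase gene of base excision repair. That window, chr2:13404301-13404600, had 47.6% and 73.3% in NRPD1ΔCTD, 0% and 3.20% in nrpd1-3, and 80.2% and 74.1% in full-length NRPD1. The window 326 bp upstream of NEK1, a NIMA-related kinase gene, had 41.4% and 54.8% in NRPD1ΔCTD, no methylated read among 229 in nrpd1-3 (a level of up to 1.31%), and 67.3% and 77.3% in full-length NRPD1. The window 794 bp upstream of NLA, which encodes a ubiquitin ligase of nitrogen and phosphate responses, had 56.3% and 64.8% in NRPD1ΔCTD, 0.237% and 0.167% in nrpd1-3, and 70.6% and 76.0% in full-length NRPD1. Upstream of RPL, a homeobox gene of fruit patterning, NRPD1ΔCTD had 39.2% and 45.6%, nrpd1-3 1.961% and 0%, and full-length NRPD1 70.9% and 59.7%. The other windows among the 10 highest were upstream of SGP2 (a small GTPase), AT1G58150, AT1G18940, ZW2, CML41 (a calmodulin-like protein) and LAF3 (an amidohydrolase of phytochrome A signalling). NRPD1ΔCTD was below full-length NRPD1 without overlap at all 10, which were picked for a high full-length level (17.7% of all covered windows had this order), and restored shares ran between 43.2% and 92.5%.

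Of the 10 genes with the highest methylated member inside them, 4 held it in an intron and 6 in an untranslated exon. The highest, in an intron of AT4G03380 (chr4:1488301-1488600), had 43.0% and 41.6% in NRPD1ΔCTD, 1.25% and 0% in nrpd1-3 and 72.5% and 64.7% in full-length NRPD1. In an intron of SULTR3;2, of the sulfate transporter family, NRPD1ΔCTD had 48.9% and 37.0%, and full-length NRPD1 53.6% and 53.1%. There nrpd1-3 had no methylated read among 366 counted per cytosine (up to 0.820% if the counts are independent). The NRPD1ΔCTD libraries were the lower pair, without overlap, in 9 of the 10, again picked for a high full-length level (17.7% of all covered windows). The exception was AT1G05030, a major facilitator superfamily gene, with 64.1% and 58.5% in NRPD1ΔCTD, 4.78% and 4.23% in nrpd1-3 and 62.8% and 67.2% in full-length NRPD1. None of 5 annotated genes among the loci followed in the study had a member inside or within 1 kb (its transposon loci were not looked up). Nor had any of 3 genes known as targets of the pathway (SDC, FWA and DML1, also called ROS1) or of 16 genes of the methylation machinery. SDC stands in both of the first lists, and each of these 23 genes had 5 to 31 covered windows inside or within 1 kb. Members were only 664 of the 278507 covered windows. Their absence from these few windows cannot be told from that background share. Most nearest genes fell in none of the classes searched. Kinases were nearest to 30 members (4.52%, against 5.65% of covered windows) and F-box genes to 16 (2.41%, against 1.68%). Transcription factors were nearest to 15 (2.26%, against 1.49%) and disease resistance genes to 10 (1.51%, against 0.915%). Cytochrome P450 genes were nearest to 3 (0.452%, against 0.787%) and defensin or cysteine-rich genes to 1 (0.151%, against 0.754%).

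Members were poor in G and C, and most held some sequence with a copy elsewhere. Their median GC content was 29.3%, against 38.7% over covered windows, with a median of 5 CG and 4 CHG sites against 7 and 9. Other windows at 35% or more in full-length NRPD1 were low in GC too. Median GC was 29% in the 18 restored below 25%, 30.7% in the 28 at 95% or more, and 34% in the 529 that kept 5% or more in nrpd1-3. A median of 63.7% of the 24-mers of a member, the length of the small RNAs, occurred once in the genome, against 100% over covered windows. In the same other sets it was 91.8%, 66.8% and 56.7%. All 24-mers were unique in 9 members, against 61.3% of covered windows. A BLAST search (at least 100 bp at 80% identity or more) found a copy elsewhere in the genome for 626 of the 664 (94.3%) and another member as a match for 501 (75.5%). Only members were searched for, so there is no share of other windows to set beside these. Linking matching members gave 24 groups of 5 or more, 23 of them spread over 3 chromosomes or more.

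The largest group held 140 members on all 5 chromosomes, 123 of them on the arms, with medians of 32.2% in NRPD1ΔCTD, 2.20% in nrpd1-3 and 40.3% in full-length NRPD1. The member with the most partners in it, which matched 70 others over at least 100 bp and so not the whole group, is shown as an example, with capitals as above.
chr2:13886101-13886400: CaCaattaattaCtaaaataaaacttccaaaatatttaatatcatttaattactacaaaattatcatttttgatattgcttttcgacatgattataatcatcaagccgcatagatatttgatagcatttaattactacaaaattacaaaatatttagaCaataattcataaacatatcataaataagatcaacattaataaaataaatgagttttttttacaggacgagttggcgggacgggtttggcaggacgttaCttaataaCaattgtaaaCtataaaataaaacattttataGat
It was 76.7% A or T, and had only 8 cytosines at 50% or more, among 30 listed. Group 11 was the most highly methylated, with 9 members, a median of 62.7% in full-length NRPD1 and 0.378% in nrpd1-3. It included the windows upstream of NLA, NEK1 and ZW2 and the one inside AT1G48725. The stretches that match the NLA window above are shown for the member of lowest restored share and for the member most identical to NLA, to set their capitals beside those of that window. Both are printed from the bottom strand, 5′ to 3′, so a capital C is a cytosine of the printed strand.
chr1:21640550-21640770, minus strand (ZW2 window, 91.9% identical): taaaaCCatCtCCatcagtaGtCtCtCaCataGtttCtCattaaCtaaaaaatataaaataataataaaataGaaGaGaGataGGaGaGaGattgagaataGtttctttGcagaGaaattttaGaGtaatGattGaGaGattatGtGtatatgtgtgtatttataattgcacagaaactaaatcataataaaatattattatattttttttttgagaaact
chr5:765901-766112, minus strand (near AT5G03220, 92.5% identical): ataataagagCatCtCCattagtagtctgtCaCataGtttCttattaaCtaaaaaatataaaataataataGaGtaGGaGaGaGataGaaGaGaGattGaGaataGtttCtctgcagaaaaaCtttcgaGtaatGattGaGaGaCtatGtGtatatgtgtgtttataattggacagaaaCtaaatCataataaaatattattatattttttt
The ZW2 stretch holds 34 capitals and the chr5 stretch 35, while bases 634244 to 634464 of chromosome 1, which the ZW2 stretch matches, hold 37. The copies differed in what came back without the CTD. The ZW2 window had 28.0% and 28.4% in NRPD1ΔCTD, 0.485% and 0% in nrpd1-3, and 61.7% and 69.1% in full-length NRPD1, a restored share of 43.2%. The chr5 window had 43.7% and 35.5% in NRPD1ΔCTD, 0.275% and 0.465% in nrpd1-3, and 71.5% and 69.7% in full-length NRPD1, a share of 54.5%, and the NLA window had a share of 82.1%. The ranges of NRPD1ΔCTD and full-length NRPD1 did not overlap in any of the 9 members (17.7% of all covered windows had NRPD1ΔCTD lower without overlap), in a group singled out after its values were seen.

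Restored shares, listed by number of copies, had an order. Pooled over reads they were 64.2% for 38 members with no copy in another window, 70.2% for 158 with a copy in 1 to 10 windows, 74.4% for 271 with 11 to 50, and 77.4% for 197 with over 50. In the first of these classes the single NRPD1ΔCTD libraries gave 64.4% and 64.0%, and in the last 77.3% and 77.6%. The rule used the restored share, and these values vary the NRPD1ΔCTD library only, so the order of the classes is a description. Full-length levels did not follow the same order, at 43.1%, 43.7%, 45.2% and 42.9%. Median GC content was 30.8% in the class with no copy and 25.7% in that with over 50, and median reads per listed cytosine were 13.0 and 13.8 in NRPD1ΔCTD, 10.95 and 9.84 in nrpd1-3, and 15.3 and 14.7 in full-length NRPD1. What part multiple mapping has in these values was not tested. Across members the restored share and the percent of unique 24-mers had a Spearman's rho of -0.263, over windows that share sequence and libraries. Medians of the 24 groups ran between 65.2% and 86.5%.

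**Figure D4:**
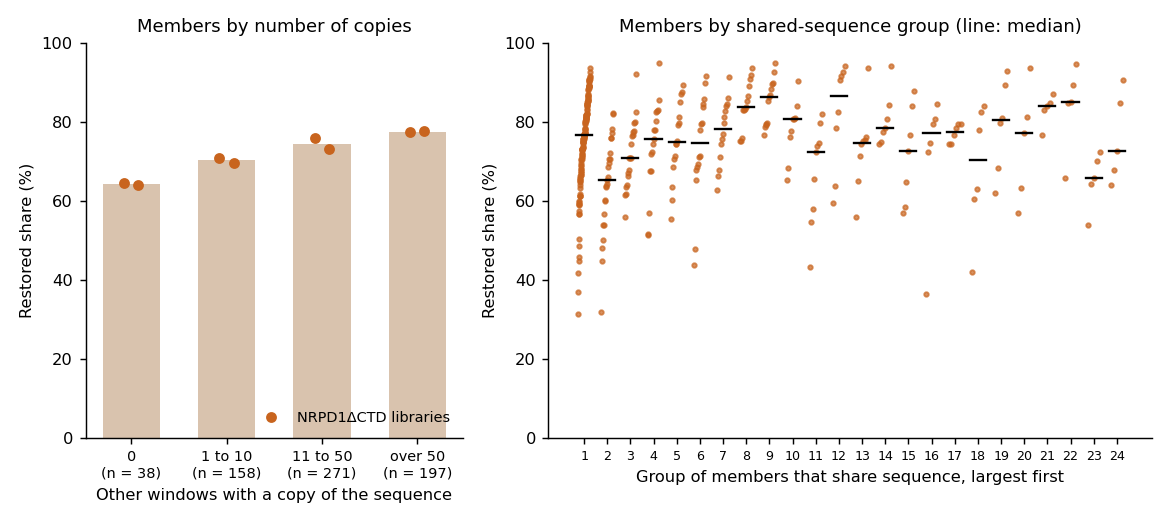
Left, restored share (%) pooled over members (bars) and for each NRPD1ΔCTD library (points), by the number of other windows with a copy of the member's sequence. Right, restored share of each member (points) in the 24 groups that share sequence, with a line at the median. The share is 64.2% in members with no copy and 77.4% in those with copies in over 50 windows, and group medians lie between 65.2% and 86.5%.

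Copies of member sequence that are not members were methylated too. Their full-length levels were lower, which follows in part from the rule, since windows that met it were taken out. Of 2880 covered non-member windows with such a copy, 492 (17.1%) were below 10% in full-length NRPD1 and 213 at 35% or more. Among all 278507 covered windows, 16.1% were at 10% or more and 1239 windows at 35% or more. Levels of the copies were 18.2% and 17.8% in NRPD1ΔCTD, 7.36% and 7.04% in nrpd1-3 and 22.3% and 22.1% in full-length NRPD1, a restored share of 71.8%. For copies of the largest group the levels were 19.5% and 19.0% in NRPD1ΔCTD, 2.68% and 2.55% in nrpd1-3, and 25.2% and 24.8% in full-length NRPD1, a share of 74.3% over 436 windows. Copies of group 11 gave a share of 60.5% over 7 windows.

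Within members, all CHH contexts were well methylated. By the cytosine and the 2 bases after it, full-length NRPD1 levels ran between 37.6% ± 0.191 at CCC and 52.0% ± 0.0170 at CTA (SD, n = 2), a ratio of 1.38, while over all covered windows the ratio of the highest context to the lowest was 10.9. NRPD1ΔCTD had the same narrow range, between 27.9% ± 0.792 at CCT and 39.5% ± 0.835 at CTA, a ratio of 1.42. The restored share lay between 71.1% at CCA and 75.1% at CTC, so no context stood apart. In nrpd1-3, where the residue was small, CAA and CTA were highest, at 3.23% ± 0.0891 and 3.21% ± 0.0206, and CCT lowest, at 1.36% ± 0.119. CAA and CTA were also the highest over all covered windows in nrpd1-3.

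**Figure D5:**
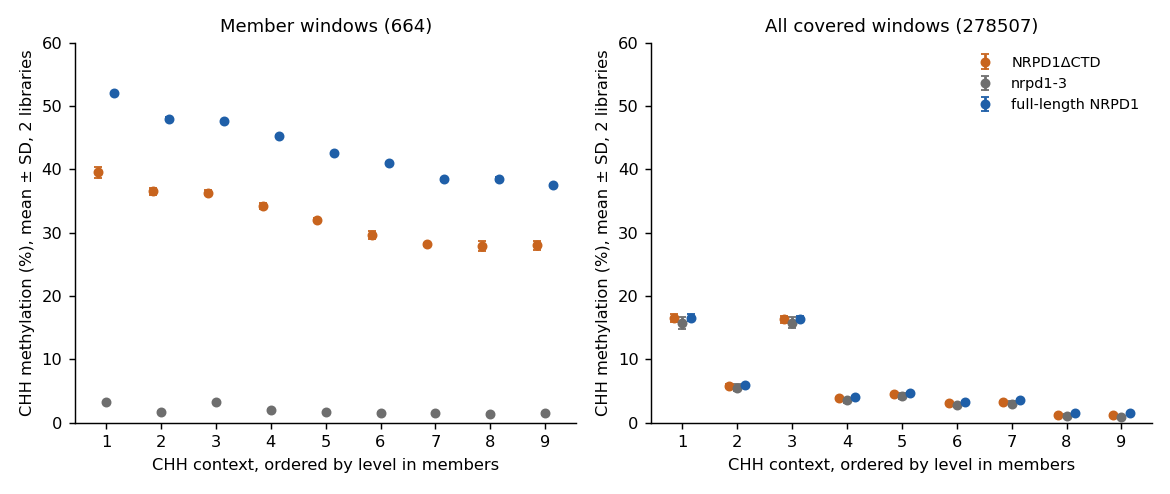
CHH methylation (%) by context, mean and SD of 2 libraries, in members (left) and all covered windows (right). Contexts 1 to 9 run in order of their full-length level in members, with CTA first and CCC last. In members full-length NRPD1 runs between 37.6% and 52.0%, and over all covered windows the highest context is 10.9 times the lowest.

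Levels of single cytosines were graded over the reads of whole above-ground tissue. Such levels cannot tell an even partial level from a mix of methylated and unmethylated cells. Cytosines with 10 or more reads in every NRPD1ΔCTD and full-length library were binned by their level in the first full-length library and measured in the others, which took no part in the binning beyond the choice of windows. Those at 80% or more had 68.8% in NRPD1ΔCTD and 80.3% in the second full-length library, a restored share of 84.9%. Those from 20% to 40% had 23.2% in NRPD1ΔCTD and 32.0% in that library, a share of 70.9%, and those below 10% had 4.44% and 6.26%, a share of 66.9%. The strands were alike over the set, at 33.2% and 32.9% in NRPD1ΔCTD, 2.14% and 2.19% in nrpd1-3, and 44.1% on both in full-length NRPD1. Single windows were less even. In 544 members with at least 10 cytosines on each strand, the strands differed by a median of 11.5 points in full-length NRPD1, and by over 20 points in 139.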

How the data were processed

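The 6 libraries were made with the TruSeq DNA methylation kit from DNA of above-ground tissue. Per the labels and the study's methods, the authors trimmed reads with Cutadapt 1.9.1 and, with Bismark 0.16.1, mapped them to TAIR10, removed PCR duplicates and listed cytosines with 5 reads or more. The deposited CHH files give for each cytosine the coverage, a read count, and the percent of C and of T reads. Methylated reads were recovered as coverage times percent, which came out whole within 0.001 reads. Coverage summed over the 12654903 to 13819039 listed cytosines of a library came to 192342372 to 225676590 (mean coverage 15.2 to 16.3). A read counts at each cytosine it covers, so these sums are not numbers of sequencing reads. Intervals cover counting error only, with counts taken as independent.

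Windows of 300 bp were tested between groups by the likelihood-ratio test of a logistic regression of reads on group, without replicate block. P-values were adjusted over all covered windows. The test had been tried on simulated data with independent counts and no spread between libraries. That simulation cannot show how the test behaves where libraries differ or counts are linked. A call needed an adjusted p of 0.01 or less and 10 points. The study used sliding windows and wild type as reference. Genes and sequence came from RefSeq TAIR10.1, whose bases matched the strand of every listed cytosine. Pericentromeres are those of the study's methods. Copies were found with blastn 2.17.0 (e-value up to 1e-05). limma 3.58.1, on arcsine square root levels, was an alternative test.

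The members and gene lists were chosen with earlier results of these data known. Named were, among the 259 members with at least 20 CHH cytosines in every library, the 3 windows with the highest full-length level, the lowest, highest and most median restored share, and, over all members, the 3 longest runs of adjacent members (ties by full-length level). Named over all members were the 10 genes with the most methylated member inside, the 10 with it within 1000 bp upstream, and listed loci with a member. Sequence groups were named after their values were seen. Alternatives changed the read and cytosine minima, the window grid, the weighting, the test and the limits, and left out each library.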

Additional observations from a re-analysis of the deposited data

How the results depend on the processing

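Restored shares moved little and the number of members much. With at least 10 reads per cytosine there were 263 members, with a held-out restored share of 73.9% and 2.40% in nrpd1-3. With at least 20 cytosines per window there were 259 members, a restored share of 72.3% (held out 73.0%), and 31.9% in NRPD1ΔCTD, 2.34% in nrpd1-3 and 43.2% in full-length NRPD1. On windows shifted by 150 bp, levels were 2.07% in nrpd1-3 and 43.8% in full-length NRPD1. With every cytosine weighted equally, levels were 32.4%, 2.11% and 43.9% in NRPD1ΔCTD, nrpd1-3 and full-length NRPD1, and the held-out share 75.4%. With only cytosines listed in all 6 libraries, 418 windows qualified, with a restored share of 70.1% (held out 71.8%) and 31.1%, 2.26% and 43.4% in the same order. Added after the data were seen, the same 664 windows on shared cytosines gave 70.7%, and members with at least 50% unique 24-mers 71.0%. Limits of 30% and 40% in full-length NRPD1 gave 1047 and 411 members, the first with a share of 72.2%. A limit of 2% in nrpd1-3 gave 356 members and a share of 71.6%.

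Leaving out 1 library at a time gave 636 to 742 members, restored shares of 71.5% to 73.7% in members and 69.5% to 75.2% in adjacent windows, levels of 32.1% to 33.1% in NRPD1ΔCTD, 1.95% to 2.21% in nrpd1-3 and 44.04% to 44.3% in full-length NRPD1, and depth differences of -0.416 to -0.382 (nrpd1-3 minus full-length), -0.146 to -0.0993 (NRPD1ΔCTD minus full-length) and 0.263 to 0.294 (NRPD1ΔCTD minus nrpd1-3). Member calls ran from 636 to 742 (nrpd1-3 lower than full-length), 323 to 420 (NRPD1ΔCTD lower than full-length) and 632 to 739 (NRPD1ΔCTD higher than nrpd1-3), and adjacent calls from 263 to 333, 50 to 58 and 198 to 245 in the same order. The held-out share could not be computed without a library.

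In the order nrpd1-3 and NRPD1ΔCTD against full-length NRPD1, then NRPD1ΔCTD against nrpd1-3, calls were 263, 152 and 262 members and 82, 12 and 58 adjacent windows with at least 10 reads, and 259, 151 and 259 members and 73, 15 and 51 adjacent windows with at least 20 cytosines, where fewer windows qualified. A difference of at least 20 points left 75 members called for NRPD1ΔCTD against full-length NRPD1, and 154, 1 and 67 adjacent windows. The F test with pooled overdispersion called 338 members for NRPD1ΔCTD against full-length NRPD1. limma, on arcsine square root levels and at an adjusted p of 0.01, called 0 members, 0 adjacent windows and 0 of all covered windows in each comparison, with lowest adjusted p of 0.0382, 0.293 and 0.107. At an unadjusted p up to 0.05 with 10 points it held 664, 303 and 658 members and 273, 42 and 205 adjacent windows (2.39%, 0.46% and 1.45% of all covered windows). Window by window, deviations of libraries with the same replicate number correlated by -0.00170 to 0.0101 over covered windows. Over all covered windows the libraries numbered 1 had the higher level in each group. Levels were 7.23% and 6.84% in NRPD1ΔCTD, 7.04% and 6.25% in nrpd1-3, and 7.35% and 7.03% in full-length NRPD1. Whether libraries of the same number share an offset was not tested. A replicate block gave 664, 371 and 662 members and 278, 45 and 209 adjacent windows. With 2 libraries a group, no exact test of library values can go below p = 0.3333.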
